A study of Mus musculus with 20 samples.

Results

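Trimethylation of histone H3 at lysine 9 (H3K9me3) was mapped in mouse germline stem cells (GSCs), which are spermatogonial stem cells grown in culture, and 630 of the 25965 gene windows of the deposited chromatin table made up the set described here. A window entered the set when each of the 2 H3K9me3 libraries lay at least 0.5 above the mean of the 2 inputs sequenced with them. The scale was log2(RPM + 0.5), where RPM is the usual reads-per-million scaling by the mapped reads of a library. Windows of olfactory receptors (symbols Olfr), vomeronasal receptors (Vmn1r and Vmn2r) and genes named Zfp were left out. The same threshold took in 1011 windows of all families, 3.89% of the table, and the 630 were 2.61% of the 24158 windows outside the left-out families. The members were thus chosen by their H3K9me3 and input values, so these are given as a description and carry no test. Catsper3, Lhcgr and Abpz, picked as examples with earlier results of these data known, are among them.

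Kmt2b encodes an H3K4 methyltransferase. FC/FC cells had lost it through 4-hydroxytamoxifen (4-OHT) at 1 μM, and F/F cells carried the floxed Kmt2b alleles with Rosa26-CreERT2 and received ethanol in parallel. Both were kept on fibroblast feeder cells and collected 6 days after the treatment. Only FC/FC cells received 4-OHT, so loss of Kmt2b and exposure to 4-OHT cannot be told apart. H3K4me3, H3K27me3, input DNA and RNA had 2 libraries in FC/FC and 2 in F/F cells. H3K9me3 was measured in 2 F/F libraries with 2 F/F inputs numbered 3 and 4, made with the ThruPLEX kit where the other chromatin libraries used NEBNext, and the labels give no treatment or day of harvest for those 4. The study used duplicate cell lines, but nothing ties a replicate number to a line. Each gene has 1 window, whose size and place are not stated.

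H3K9me3 marks constitutive heterochromatin and silenced repeats. It is written by SETDB1, SUV39H1 and SUV39H2 among others, is bound by HP1 proteins, and is often placed by KRAB zinc finger proteins through their partner KAP1. Promoters with H3K9me3 are usually silent, and gene families that lie in repeat-rich clusters are known carriers of the mark. H3K4me3 marks the starts of active and poised genes, and H3K27me3 is the mark of Polycomb repression.

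Promoters of 8 members are shown because the results turn on them, with every CG dinucleotide, the target of DNA methylation, in capitals. Each runs 5′ to 3′ on the gene's strand, from 250 bases before to 50 after the start that RefSeq gives in build GRCm38.p6. The starts lay within 39 bases of those listed in the deposited table. Whether they are the starts in use was not tested, for Igf2 included. Catsper3 (chr13:55784329-55784628, plus strand), Abpz (chr7:33739246-33739545, minus strand) and Igf2 (chr7:142666767-142667066, minus strand) held 3, 1 and 2 CG dinucleotides and had little or no H3K4me3. Lhcgr (chr17:88791965-88792264, minus strand) held 14 and carried both other marks. 3110070M22Rik (chr13:119488335-119488634, minus strand), D1Pas1 (chr1:186967166-186967465, plus strand), Tcfl5 (chr2:180642642-180642941, minus strand) and Wfdc15a (chr2:164200068-164200367, minus strand) held 48, 15, 35 and 9 and were among the members with the most H3K4me3.
Catsper3: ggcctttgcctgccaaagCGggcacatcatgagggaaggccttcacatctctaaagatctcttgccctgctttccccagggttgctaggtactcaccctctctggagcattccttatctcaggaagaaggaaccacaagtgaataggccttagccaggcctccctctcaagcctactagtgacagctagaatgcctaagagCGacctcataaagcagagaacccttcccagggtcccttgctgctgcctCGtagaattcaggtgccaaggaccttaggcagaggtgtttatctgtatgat
Lhcgr: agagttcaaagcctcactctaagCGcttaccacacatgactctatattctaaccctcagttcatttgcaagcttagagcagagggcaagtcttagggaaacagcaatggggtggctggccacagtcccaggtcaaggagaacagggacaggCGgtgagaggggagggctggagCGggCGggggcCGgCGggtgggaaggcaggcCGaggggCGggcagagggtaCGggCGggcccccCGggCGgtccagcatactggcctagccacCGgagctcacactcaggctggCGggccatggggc
Abpz: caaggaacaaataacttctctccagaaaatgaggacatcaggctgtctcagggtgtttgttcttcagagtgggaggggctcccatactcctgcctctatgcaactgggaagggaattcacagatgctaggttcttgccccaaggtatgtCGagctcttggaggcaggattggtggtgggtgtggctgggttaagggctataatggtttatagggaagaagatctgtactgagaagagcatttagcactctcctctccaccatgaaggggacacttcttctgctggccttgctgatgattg
Igf2: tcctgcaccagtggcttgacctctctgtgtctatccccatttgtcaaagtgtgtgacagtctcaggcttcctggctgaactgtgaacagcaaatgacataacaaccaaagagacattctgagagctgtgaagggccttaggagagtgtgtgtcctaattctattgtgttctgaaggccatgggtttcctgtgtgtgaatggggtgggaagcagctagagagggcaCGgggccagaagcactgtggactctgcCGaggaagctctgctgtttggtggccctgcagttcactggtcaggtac
3110070M22Rik: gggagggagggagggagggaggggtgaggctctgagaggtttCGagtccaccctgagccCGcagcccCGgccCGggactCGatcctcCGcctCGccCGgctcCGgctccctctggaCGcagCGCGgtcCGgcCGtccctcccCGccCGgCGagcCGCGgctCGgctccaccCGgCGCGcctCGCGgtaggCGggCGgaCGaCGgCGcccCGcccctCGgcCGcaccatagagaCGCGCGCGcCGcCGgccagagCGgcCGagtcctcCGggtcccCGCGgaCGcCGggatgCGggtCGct
D1Pas1: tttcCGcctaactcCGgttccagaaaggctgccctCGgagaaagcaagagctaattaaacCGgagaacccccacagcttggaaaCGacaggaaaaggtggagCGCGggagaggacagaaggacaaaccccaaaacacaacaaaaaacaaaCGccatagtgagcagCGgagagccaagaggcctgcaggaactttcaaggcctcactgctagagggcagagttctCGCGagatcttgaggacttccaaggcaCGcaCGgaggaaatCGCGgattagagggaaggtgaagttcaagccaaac
Tcfl5: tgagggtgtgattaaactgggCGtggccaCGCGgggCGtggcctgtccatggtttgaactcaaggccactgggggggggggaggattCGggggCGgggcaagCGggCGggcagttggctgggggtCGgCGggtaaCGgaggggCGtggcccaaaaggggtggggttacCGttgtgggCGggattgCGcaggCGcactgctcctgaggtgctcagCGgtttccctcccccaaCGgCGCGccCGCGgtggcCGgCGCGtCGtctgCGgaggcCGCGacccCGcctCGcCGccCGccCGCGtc
Wfdc15a: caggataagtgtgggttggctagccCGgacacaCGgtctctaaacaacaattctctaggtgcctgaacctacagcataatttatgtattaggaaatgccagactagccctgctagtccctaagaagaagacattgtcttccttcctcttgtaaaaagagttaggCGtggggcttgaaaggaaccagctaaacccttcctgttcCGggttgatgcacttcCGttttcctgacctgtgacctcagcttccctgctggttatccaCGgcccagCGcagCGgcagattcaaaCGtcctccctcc
The 8 were picked for their results and do not stand for the base composition of the set. A link between CG count and H3K4me3 was not tested. Members outside the 8 also went against it. Cypt1 held 0 CG dinucleotides and had H3K4me3 above input, and 1700112J05Rik held 14 and had H3K4me3 below input. A comparison of base composition over the set is void. Only 326 of the 630 members matched a RefSeq promoter on the same chromosome and strand, within 1000 bases of the listed start.

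Mapped reads ran from 41099194 to 63537156 in the H3K9me3 libraries and their inputs, from 3830045 to 18035120 in the other chromatin libraries, and from 38458004 to 45771855 in RNA. Kmt2b is listed under its older symbol Wbp7, and its RNA stood at 131.5 and 184.6 RPM in FC/FC cells against 142.1 and 150 RPM in F/F cells. That count covers the whole gene and the deleted part is not given in the labels, so it does not check them. The H3K4me3 library of FC/FC replicate 1 was the shallowest, and 1 read there was worth 0.261 RPM. The H3K9me3 libraries had 0.449% and 0.442% of their reads in gene windows, against 1.02% and 1.07% in their inputs. Over all windows the median H3K9me3 difference from input was therefore negative, at -0.64 and -0.66, so that a member stood above input while most windows stood below it. Germ cell markers summed to between 2666 and 2850 RPM over the 4 RNA libraries, with all 13 markers present in each. Blood and macrophage markers summed to at most 14.9 RPM.

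At the members, H3K9me3 lay 1.16 and 1.14 above input at the median (log2 difference, replicates 1 and 2), and reached 2.42 and 2.41. Replicate 1 was the higher of the 2 in 373 members. In 299 members both differences were at least 1, and in 8 both were at least 2. No member had fewer than 10 reads in either H3K9me3 library, although 6 had no read in one of the inputs.

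Abpz, an androgen-binding protein of the secretoglobin family that is secreted in mouse saliva and tears, had the largest lower difference of all members. Its window (gene at chr7:33737190-33739312) held 4.55 and 4.54 RPM of H3K9me3, against 0.504 and 0.402 RPM in the inputs. Catsper3, a pore-forming subunit of the CatSper calcium channel of sperm (chr13:55784568-55808998), held 3.58 and 2.96 RPM, against 0.409 and 0.237 RPM in the inputs. Lhcgr, the receptor for luteinizing hormone on Leydig and ovarian cells (chr17:88741549-88791976), held 3.43 and 2.49 RPM, against 0.394 and 0.355 RPM. In each of these windows both ChIP libraries stood far from both inputs.

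The other members among the 12 with the largest differences were Gm9898, 4930451E10Rik, Gm13089, Cyp2d12, Gm11364, Gm15348, AC149589.1, Gm4362, Serpinb6d and Ceacam5. Cyp2d12, a cytochrome P450, held 3.33 and 3.22 RPM against 0.378 and 0.449 RPM in the inputs. Serpinb6d, a clade B serpin protease inhibitor, held 2.92 and 3.34 RPM against 0.283 and 0.544 RPM. Ceacam5, a cell adhesion molecule, held 2.46 and 2.53 RPM against 0.362 and 0.213 RPM. 4930451E10Rik begins beside Catsper3 on the opposite strand and had nearly the same reads, with 3.82 and 3.06 RPM of H3K9me3, so these entries largely count the same DNA.

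**Figure D1:**
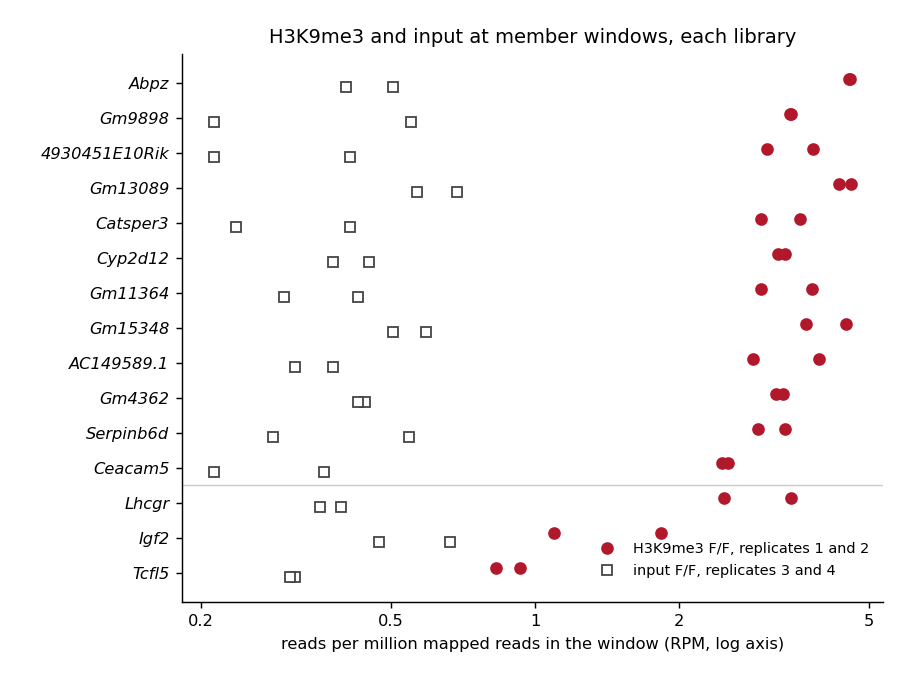
H3K9me3 (filled circles, F/F replicates 1 and 2) and input (open squares, F/F replicates 3 and 4) at 12 members with the largest differences and, under the line, at Lhcgr, Igf2 and Tcfl5, in RPM on a log axis. The circles of Abpz lie at 4.55 and 4.54 RPM and its squares at 0.504 and 0.402, while those of Tcfl5 lie at 0.827 and 0.928 against 0.315 and 0.307.

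The threshold cut a continuous range. Just inside it lay Gm1975, Mmp10 (a matrix metalloproteinase), Gm12051 and Muc3 (a mucin), whose lower differences were 0.505, 0.503, 0.503 and 0.502. Just outside lay Tlr1 (a Toll-like receptor), 9030619P08Rik, AC147549.3 and Pilrb2, at 0.4997, 0.4997, 0.498 and 0.497. Muc3 held 1.78 and 0.770 RPM of H3K9me3 against 0.441 and 0.355 RPM in the inputs, and Tlr1 held 1.02 and 0.730 RPM against 0.362 and 0.378 RPM.

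By name, 151 members belonged to 27 gene families drawn up after the members were known. They made up 24.2% of the 623 windows of those families, where 2.61% of the windows outside the left-out families were members. Since the list followed from the members, the gap between these shares is a description and no test. Another 335 members had predicted, RIKEN or genomic clone names or were ribosomal protein pseudogenes, which was 4.82% of such windows. The other 144 members came from 16588 windows, or 0.868%. For comparison, 24.3% of Olfr windows, 31% of Vmn1r and Vmn2r windows and 2.7% of Zfp windows passed the same threshold. No member was a microRNA gene.

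Androgen-binding proteins led the families, with all 7 windows in the set and median differences of 1.78 and 1.69 in the 2 H3K9me3 libraries. Abpg held 3.72 and 2.82 RPM of H3K9me3 against 0.299 and 0.497 RPM in the inputs, and Abpd, the lowest of the 7, held 1.22 and 0.750 RPM against 0.142 and 0.189 RPM. Pregnancy-specific glycoproteins (Psg), secreted by the placenta, had 9 of 13 windows in the set, led by Psg26 and Psg25. The Ceacam adhesion molecules beside them had 6 of 15, led by Ceacam5 and Ceacam14.

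Among receptors, the Mas-related receptors (Mrgpr) of sensory neurons had 13 of 20 windows, led by Mrgprb3 and Mrgprb1, although the olfactory and vomeronasal families had been set aside. Immune receptor families followed, with 3 of 7 Cd209 lectins, 4 of 11 Klra (Ly49) receptors of natural killer cells and 7 of 32 C-type lectins (Clec). Skint genes, which act on skin T cells, had 5 of 11 (Skint5 and Skint3 first), and Ly6 surface proteins had 4 of 16 (Ly6g and Ly6c2 first). Among enzymes and inhibitors, clade A serpins had 11 of 23 windows (Serpina3j and Serpina1c first), clade B serpins 8 of 26, carboxylesterases (Ces) 6 of 20, UDP-glucuronosyltransferases (Ugt) 4 of 21 and cytochromes P450 (Cyp) 24 of 98.

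Families of germ cells and embryos were also represented, as was a family of the liver. PRAME-like genes (Pramel, Pramef and Oog), known from oocytes, preimplantation embryos and testis, had 5 of 14 windows, with Pramef6 and Oog2 first. The Ssx family on the X chromosome had 4 of 11. Major urinary proteins (Mup), pheromone carriers from the liver, had 5 of 21. The families are not independent samples, since their genes are copies of each other and lie side by side.

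**Figure D2:**
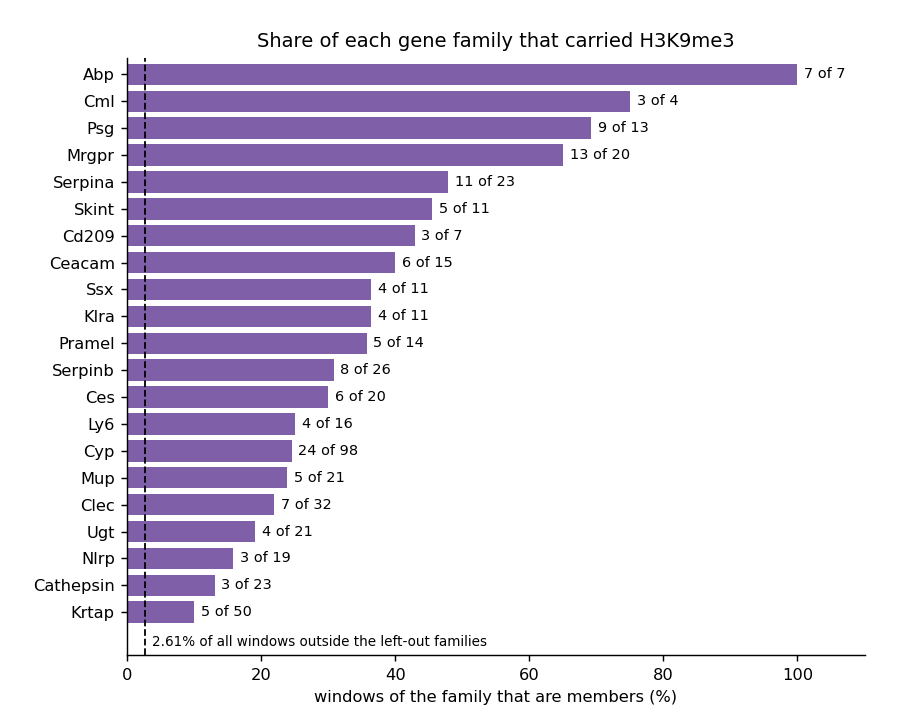
Share of the windows of each gene family that were members, for families with at least 3 members; the count stands beside each bar and the dashed line gives 2.61%, the share over all windows outside the left-out families. Abp stands at 7 of 7 and Krtap, the lowest, at 5 of 50. The families were drawn up after the members were known, so the distance from the line is no test.

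Members lay in runs along the chromosomes. Of the 630, 417 fell into 112 clusters in which neighbouring listed starts were at most 500000 bases apart, and 27 clusters of at least 5 held 214 members. A total of 213 stood alone, and 324 had another member as the next gene of the table. Chromosome 7 held 85 members (3.88% of its windows), chromosome 4 held 65 (3.69%), the X chromosome 44 (4.03%), and chromosome 14 only 8 (0.77%).

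The largest run, on chromosome 4 between starts 143511343 and 144213318, held 16 members among 20 windows and included Pramef6, Pramel4, Oog2 and Gm13089. On chromosome 7, a run with Ceacam and Psg genes held 15 of 17 windows, a run with Mrgpr genes 14 of 16, and a run with Abpz, Abpg, Abpb, Abpa and Abpd 13 of 13. The serpin run on chromosome 12 held 11 of 20 windows. A run on chromosome 1 with Sp110 and Sp140, relatives of the Speckled protein SP100, held 10 of 11. In 24 members the listed start was within 1000 bases of that of another member, and 6 members (Trim60 with Trim61, Lipo1 with Lipo2 and Serpina3k with Serpina3m) had the same reads as another in every chromatin library.

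Lists of genes that matter in germ cells held between 0 and 6 members each, where 2.61% of the windows outside the left-out families were members. With so few, no list is said to hold more or fewer than that share. CatSper channel genes had 1 of 9 windows, Catsper3, while Catsperg1, an auxiliary subunit, had 0.243 and 0.355 RPM of H3K9me3 against 0.220 and 0.284 RPM in the inputs. The gonadotropin and steroid list had 2 of 30, Lhcgr and Hsd3b2, a steroid-synthesis enzyme with 2.46 and 2.27 RPM against 0.394 and 0.378 RPM. Imprinted genes had 1 of 51, the growth factor gene Igf2, with 1.09 and 1.84 RPM against 0.472 and 0.662 RPM. KRAB or SCAN zinc finger genes not named Zfp had 6 of 81, Gm4924, Gm13251, Gm10324, AU041133, Zscan4d and Zscan4b. The Zscan4 genes, expressed in early mouse embryos and in rare embryonic stem cells, had a lower difference of 0.80 for Zscan4d and 0.61 for Zscan4b.

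No member came from the 45 windows of germline genes that DNA methylation or PRC1.6 silences in somatic cells, the 33 of meiotic prophase, the 23 of the piRNA pathway or the 23 of the H3K9 methylation machinery. At a share of 2.61%, counts of 0 in lists of this size are no result about them. Germ cell markers (13 windows), fibroblast feeder markers (22) and blood and macrophage markers (11) had none either. Sertoli and Leydig markers had 1 of 16, which was Lhcgr, and sperm genes had 1 of 44, which was Catsper3.

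A small group stood apart by its input. Across the table, 16 windows had at least 4 RPM in each of the F/F inputs 1 and 2, and 13 of these were members (2.06% of the members, against 0.062% of all windows). They were Gm10800, Gm10801, AC242409.1, Sfi1 (which encodes a centrin-binding protein), Gm12735, Gm10717, Gm10719, Gm10720, Gm10722, Gm11168, Gm17535, AC131780.1 and 4931408C20Rik. Gm10800 held 37.1 and 30.3 RPM of H3K9me3, against 15.8 and 23.01 RPM in inputs 3 and 4 and 113 and 96.5 RPM in the NEBNext F/F inputs 1 and 2. Its reads were high in every chromatin library. Inputs 3 and 4 differ from inputs 1 and 2 in kit and depth, and the part of either in this difference was not tested. Without these 13 windows the set counts 617.

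Most members had little H3K4me3 in F/F cells. Over the 630 windows the median was 0.193 and 0.166 RPM in the 2 F/F libraries (2 and 3 reads), against 7.72 and 9.48 RPM over all windows, and 37 members reached 1 RPM in each library. In a limma test against F/F inputs 1 and 2 over all windows, 25 members were higher in H3K4me3 at an adjusted p under 0.05, where 60.3% of all windows were higher. Another 189 members were lower than input, where 11.7% of all windows were, although 61 were so without H3K4me3 F/F replicate 2 and 103 without replicate 1. Mark and input libraries did not overlap in 43 members with higher and 316 with lower H3K4me3, against 62.1% and 19.3% of all windows. The log2 difference over input was -0.33 at the median of the members and 3.12 over all windows. Setting each library's median to the same value removes that shift by construction and leaves 3 higher and 623 lower.

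The members with the most H3K4me3 included genes of the testis. D1Pas1, a testis-expressed DEAD-box RNA helicase, held 19.8 and 21.1 RPM of H3K4me3 in F/F cells against 0.456 and 0.972 RPM in input, a log2 difference of 4.14 ± 0.24 (SE, limma adjusted p = 1.495e-68). 3110070M22Rik held 19.9 and 23.9 RPM against 0.821 and 1.11 RPM (3.94 ± 0.23, limma adjusted p = 3.772e-66). Tcfl5, a basic helix-loop-helix factor of spermatocytes, held 8.01 and 9.65 RPM against 0.821 and 0.278 RPM (3.20 ± 0.31, limma adjusted p = 1.502e-24). In all of these the mark libraries lay far above both inputs.

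The same windows carried H3K9me3. It stood at 1.12 and 1.28 RPM for D1Pas1 against 0.331 and 0.426 RPM in its inputs. For 3110070M22Rik it stood at 5.40 and 5.69 RPM, against 1.31 and 1.16 RPM in its inputs. Those inputs were unusually high. Of all 25965 windows, 31 reached 1 RPM in input 3 and 31 in input 4, and 24 and 22 of these were members. Since each library pools many cells, the values do not tell whether both marks sat on the same chromosomes. Ordered by the lower of the 2 libraries over input, D1Pas1, 3110070M22Rik and Tcfl5 stood first with Gm7120, whose start lies within 1000 bases of that of 3110070M22Rik, E230019M04Rik, Wfdc15a (a whey acidic protein domain gene), Sfi1 and the lipase pair Lipo1 and Lipo2, which tied on shared reads.

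H3K27me3 exceeded input at more members than H3K4me3 did. It was higher than input in 95 of the 630 in F/F cells (limma adjusted p under 0.05, against 13% of all windows), and lower in 3, Gm16081, Gm8597 and Adam25, against 4.53% of all windows. The 95 are 15.1% of the members, close to the share over all windows, so no excess is read from it. Without input replicate 1, or without input replicate 2, 0 of all 25965 windows were called higher, members included, and without H3K27me3 F/F replicate 1 there were 61 members. Mark and input libraries did not overlap in 304 of the 630 members with higher H3K27me3 and 38 with lower, against 24.3% and 30.8% of all windows. The log2 difference over input was 0.28 at the median of the members and -0.10 over all windows. This shift of the members as a set was not tested.

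Lhcgr had the largest log2 difference over input, with 8.28 and 5.49 RPM of H3K27me3 in F/F cells against 0.547 and 0.208 RPM in input (log2 difference 3.07 ± 0.39, SE, limma adjusted p = 1.618e-12). Lrg1, a secreted leucine-rich glycoprotein, held 9.17 and 5.31 RPM against 0.365 and 0.833 RPM (2.80 ± 0.40, limma adjusted p = 2.168e-10). Trpm2, a cation channel, held 4.86 and 4.12 RPM against 0.182 and 0.278 RPM (2.77 ± 0.38, limma adjusted p = 3.863e-11). Mark and input libraries did not overlap in any of these. Acoxl (an acyl-CoA oxidase relative), Gm5806, 4930505O20Rik, CT485612.2 and Gm6756 were next in order of the lower library over input.

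Of the 12 members with the largest H3K9me3 difference, 6 were higher than input in H3K27me3, where 13% of all windows were. None was higher in H3K4me3 and 4 were lower, where 60.3% and 11.7% of all windows were. The 4 included Catsper3 and 4930451E10Rik, which largely count the same DNA. A link between the marks was not tested with these 12. Abpz was among the 6, with 2.12 and 1.46 RPM of H3K27me3 in F/F cells against 0.182 and 0.555 RPM in input (log2 difference 1.42 ± 0.37, SE, limma adjusted p = 0.001499). Catsper3 was not, with 0.889 and 0.549 RPM against 0.274 and 0.555 RPM (0.42 ± 0.37, limma adjusted p = 0.4755), and its H3K4me3 was lower than input, with 0 and 2 reads against 3 and 8 (log2 difference -0.59 ± 0.22, limma adjusted p = 0.009588). That call was lost with voom and without input replicate 2, H3K4me3 F/F replicate 1 or replicate 2 (limma adjusted p = 0.05801, 0.1454, 0.1103 and 0.06194). In the runs described above, where 13% of all windows were higher in H3K27me3, the Pramel run had 0 of 16, the Ceacam and Psg run 3 of 15, the Mrgpr run 5 of 14, the Abpz run 2 of 13, the serpin run on chromosome 12 1 of 11 and the Sp110 run 4 of 10. These shares are a description of neighbouring windows with no test.

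Both other marks were called higher than input in 11 members (1.75%, against 10.9% of all windows), Acoxl, Cypt1, Gm11884, Gm3852, Gm5548, Gm5806, Gm5884, Lhcgr, Lipo1, Lipo2 and Mrgpra6, and neither was called higher in 521 (82.7%, against 37.6%). At Lhcgr, H3K4me3 stood at 1.54 and 2.11 RPM in F/F cells against 0.547 and 0.208 RPM in input (log2 difference 1.42 ± 0.44, SE, limma adjusted p = 0.002178), so that all 3 marks exceeded input there. The H3K4me3 call was lost without input replicate 2 (limma adjusted p = 0.08251) and the H3K27me3 call without input replicate 1 or replicate 2 (limma adjusted p = 0.05083 and 0.05457).

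**Figure D3:**
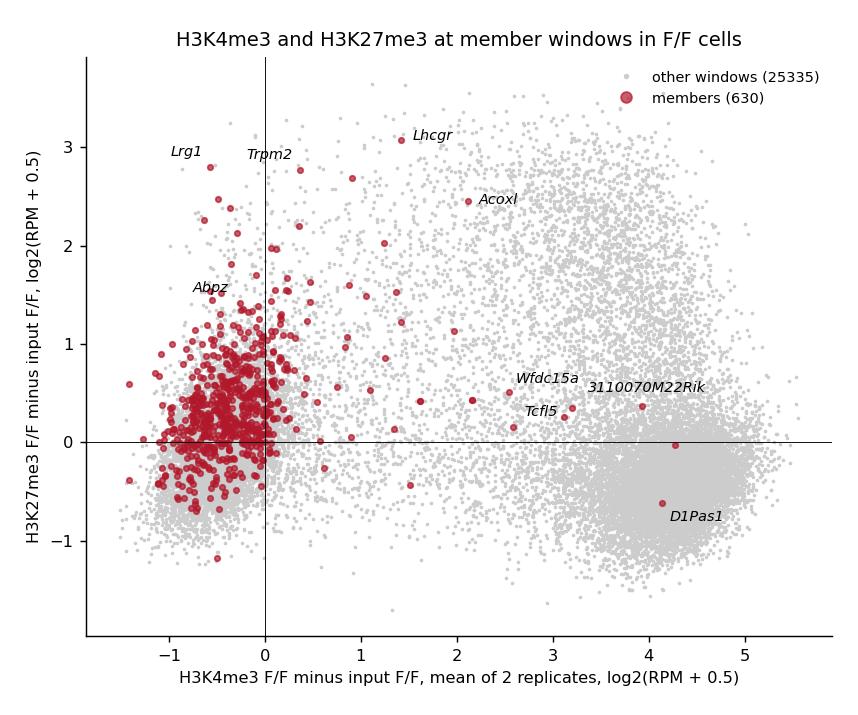
H3K4me3 (horizontal) and H3K27me3 (vertical) over input in F/F cells, as the mean log2(RPM + 0.5) difference of 2 libraries, for the 630 members (red) and all other windows (grey). Most members lie left of 0 in H3K4me3; Lhcgr stands at 1.42 and 3.07, and D1Pas1 at 4.14 and -0.62.

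RNA of the member genes was low or not detected. Of the 630 members 614 had a row in the RNA table, and 281 of them (45.8%) had no read in either F/F library, against 17.7% of all genes and 88.4% of the genes of H3K9me3-marked Olfr, Vmn1r, Vmn2r and Zfp windows. A count of 0 allows up to 0.078 and 0.0676 RPM in the 2 F/F libraries (3 reads). At least 1 RPM in both F/F libraries was found for 103 members (16.8%), against 54.8% of all genes, and 37 reached 10 RPM. None of the 7 androgen-binding proteins, 9 Psg genes or 24 Cyp genes among the members reached 1 RPM in both.

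Catsper3 had 5.61 and 2.95 RPM of RNA in FC/FC cells against 3.61 and 3.45 RPM in F/F cells, and the groups overlapped. Lhcgr had 4 and 1 reads in FC/FC cells against 0 and 1 in F/F cells. Abpz had none in any RNA library. RNA values are not divided by gene length, so levels are not compared between genes.

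The members with the most RNA were Rpl27-ps3, Sfi1, Gm8991, Gm5805, Gm7808, Slc22a27, Cd209c and Usp14, with F/F means between 124.2 and 332.3 RPM. Rpl27-ps3 is a ribosomal protein pseudogene, and reads of such copies cannot be told from those of their parent genes with the counting at hand. Tcfl5 had 109 and 115.3 RPM in FC/FC cells against 107.9 and 108.2 RPM in F/F cells. D1Pas1 had 20.0 and 25.4 RPM in FC/FC cells against 24.4 and 23.4 RPM in F/F cells. Of the 25 members with H3K4me3 above input, 22 had an RNA row and 10 had at least 1 RPM in both F/F libraries.

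**Figure D4:**
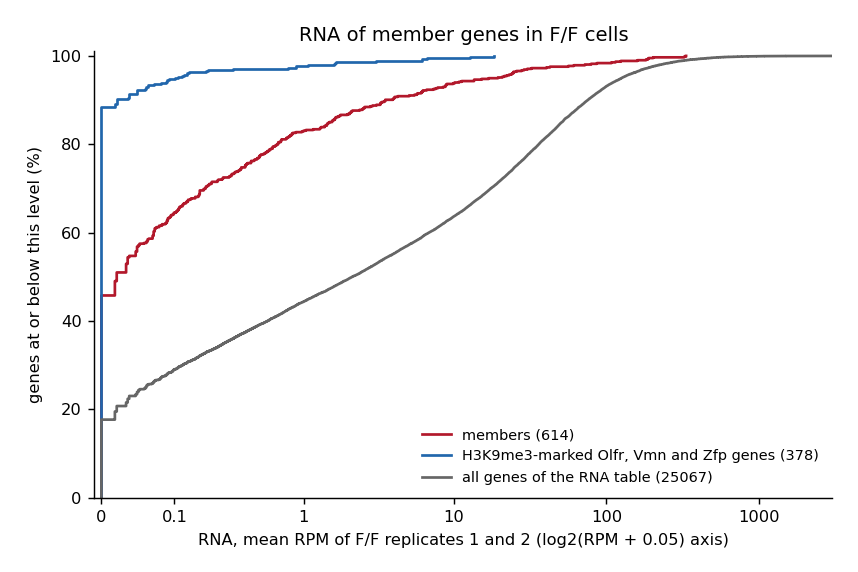
Cumulative share of genes by mean RNA level of F/F replicates 1 and 2, for 614 members (red), 378 genes of marked Olfr, Vmn1r, Vmn2r and Zfp windows (blue) and all 25067 genes of the RNA table (grey). The curves start at 45.8%, 88.4% and 17.7%, the shares with no read.

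Between FC/FC and F/F cells, H3K4me3 fell at 5 members (4 distinct windows) and was called higher at 5 (limma adjusted p under 0.05). Only 36 of the 630 members had a mean of at least 1 RPM and entered the test, so the rest carry no result. Over all windows tested 9.9% were called lower and 0.0512% higher, and the median log2 change was -0.26, against -0.14 over the 36. With library medians set equal, 3 members were lower and none higher, and with quantile normalization none was lower and 4 were higher. Fits with 1 library left out keep 1 library in a group, so their calls are not counted here. The median log2 change over the 36 members was -0.27 without F/F replicate 1 and -0.14 without F/F replicate 2. It was -0.23 without FC/FC replicate 1 and 0.16 without FC/FC replicate 2. Over all windows tested the medians were -0.36, -0.17, -0.03 and -0.50 in the same order. The groups did not overlap in 14 members that were lower and 6 that were higher, where 42.8% and 8.98% of all windows tested were such.

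Cypt1, a gene of the perinuclear theca of spermatids, had 0 and 5 reads of H3K4me3 in FC/FC cells (0 and 0.302 RPM) against 26 and 30 reads in F/F cells (2.51 and 1.66 RPM), a log2 change of -2.94 ± 0.87 (SE, limma adjusted p = 0.01926). Acoxl had 0 and 21 reads in FC/FC cells (0 and 1.27 RPM) against 29 and 91 in F/F cells (2.80 and 5.05 RPM), a change of -2.78 ± 0.76 (limma adjusted p = 0.01224). Wfdc15a had 1.83 and 1.99 RPM in FC/FC cells against 5.69 and 6.82 RPM in F/F cells (-1.71 ± 0.61, limma adjusted p = 0.04987). The groups did not overlap in any of these. The first 2 had no read in the shallow FC/FC replicate 1, where a count of 0 allows up to 0.783 RPM. Trim60 and Trim61, which share their reads and count as 1 observation, changed by -2.35 ± 0.81 (limma adjusted p = 0.04414). Cypt1, Acoxl, Trim60 and Trim61 averaged under 1 RPM in FC/FC cells, so they entered the test only through F/F cells, where they were high. With no filter on low values these calls stood and that of Wfdc15a did not (limma adjusted p = 0.07238).

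Without FC/FC replicate 1 the fit keeps 1 FC/FC library, so only the log2 changes are given. They were -2.76 for Cypt1 and -1.65 for Wfdc15a, and shrank to -1.57 for Acoxl and -1.43 for Trim60. Lhcgr had 0.783 and 0.663 RPM in FC/FC cells against 1.54 and 2.11 RPM in F/F cells and did not pass (log2 change -1.32 ± 0.79, limma adjusted p = 0.305). It too entered the test only through F/F cells. D1Pas1 had 12.8 and 20.3 RPM in FC/FC cells against 19.8 and 21.1 RPM in F/F cells (-0.34 ± 0.30, limma adjusted p = 0.5688). Tcfl5 did not pass either, at -0.37 ± 0.46 (limma adjusted p = 0.732).

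All 5 members called higher, Gm10800, Gm10801, AC242409.1, Sfi1 and Gm10717, belonged to the 13 windows with high input. Gm10800 had 189 and 76.2 RPM of H3K4me3 in FC/FC cells against 61 and 64.5 RPM in F/F cells (log2 change 0.94 ± 0.07, SE, limma adjusted p = 2.73e-37), while its input stood at 111.3 and 100.8 RPM in FC/FC cells and 113.1 and 96.5 RPM in F/F cells. Sfi1 had 223.5 and 112.6 RPM in FC/FC cells against 160.6 and 108.6 RPM in F/F cells, and these overlapped. The SE draw on limma's trend over all windows, so they do not show the spread between the FC/FC libraries. The high value came from FC/FC replicate 1 each time. Without that library 1 FC/FC library is left in the fit. The log2 changes were then 0.28 for Gm10800, 0.23 for Gm10717, 0.19 for Gm10801, -0.03 for AC242409.1 and -0.23 for Sfi1.

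No member passed the test for a change of H3K27me3. Of the 109 members with a mean of at least 1 RPM, limma called 0 lower and 0 higher, where 0.0% and 0.791% of all windows tested were called. At an unadjusted p under 0.05 there was 1 in each direction, and voom, limma's model for the recovered reads, also called 0 and 0. The groups did not overlap in 17 members that were lower and 12 that were higher, against 3.14% and 36.9% of all windows tested. The median log2 change was -0.04 over the 109 members and 0.45 over all windows tested. With library medians set equal, the medians became -0.63 and -0.13, and 9 members were called lower, where 4.2% of all windows tested were.

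Lhcgr had 8.44 and 7.31 RPM of H3K27me3 in FC/FC cells against 8.28 and 5.49 RPM in F/F cells (log2 change 0.22 ± 0.59, SE, limma adjusted p = 0.9318), and the sign turned with library medians set equal. Abpz had 2.43 and 0.949 RPM in FC/FC cells against 2.12 and 1.46 RPM in F/F cells (-0.21 ± 0.56, limma adjusted p = 0.931). Both groups overlapped in each gene. The member with a lower value at an unadjusted p under 0.05 was Cd209a, a lectin of dendritic cells, with 0.945 and 0.380 RPM in FC/FC cells against 1.71 and 2.01 RPM in F/F cells (-1.63 ± 0.65, limma adjusted p = 0.2409). Cd209a was under 1 RPM in both FC/FC libraries, so it passed the filter only through F/F cells, where it was high. The member with a higher value was Cdr1, with 2.84 and 2.28 RPM in FC/FC cells against 1.44 and 0.641 RPM in F/F cells (1.41 ± 0.56, limma adjusted p = 0.2409).

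RNA rose in 3 members and fell in 2, of the 108 whose log2 RPM averaged 0 or more (1 RPM). Over all genes tested 3.01% rose and 0.312% fell, and the median log2 change was 0.05 over the 108 members and 0.06 over all genes. The groups did not overlap in 31 members that were higher and 17 that were lower, against 36.2% and 16% of all genes tested. Igf2 had 12.9 and 15.4 RPM in FC/FC cells against 7.15 and 5.16 RPM in F/F cells, a log2 change of 1.22 ± 0.18 (SE, limma adjusted p = 0.02635). Ly6c1, a surface protein of monocytes and endothelial cells, had 1.83 and 1.87 RPM in FC/FC cells against 0.598 and 0.811 RPM in F/F cells (1.41 ± 0.26, limma adjusted p = 0.04006). The groups did not overlap in either gene. Ly6c1 was under 1 RPM in both F/F libraries, so it passed the filter only through FC/FC cells, where it was high.

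Summed RNA of the fibroblast feeder markers was also higher in FC/FC cells. The 22 markers summed to 627.2 and 787.8 RPM in FC/FC cells against 562.9 and 599.6 RPM in F/F cells, and each had reads in every library. Of the 20 feeder markers tested 3 were called higher in RNA, as were 3 of the 13 germ cell markers, where 3.01% of all genes were. The part of feeder cells in the Igf2 and Ly6c1 values was not tested. In such bulk samples, fewer cells of a type and less RNA per cell cannot be told apart. Ly6c1 lost its call without F/F replicate 1 (limma adjusted p = 0.1009).

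Ugt1a10, a UDP-glucuronosyltransferase whose gene shares exons with the other Ugt1a genes, had 10.9 and 10.7 RPM in FC/FC cells against 5.46 and 5.57 RPM in F/F cells (log2 change 0.96 ± 0.12, SE, limma adjusted p = 0.02062). Its reads may therefore belong to more than 1 gene. Clec2g, a C-type lectin, had 3.54 and 4.27 RPM in FC/FC cells against 7.80 and 9.85 RPM in F/F cells (-1.17 ± 0.17, limma adjusted p = 0.02555). Nlrp9c, of an oocyte-expressed NLR group, had 6.55 and 10.04 RPM in FC/FC cells against 16.02 and 17.9 RPM in F/F cells (-1.06 ± 0.20, limma adjusted p = 0.04205). No groups overlapped in these. H3K4me3 at the windows of the 5 genes was under the filter of 1 RPM, with at most 0.783 RPM in FC/FC libraries and 0.333 RPM in F/F libraries. All 5 lost their calls with no filter on low values, where no gene of the 21314 tested was called. With quantile normalization 4 of them did, Clec2g being the exception. In that setting 0.142% of all genes were called lower and 0.355% higher.

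**Figure D5:**
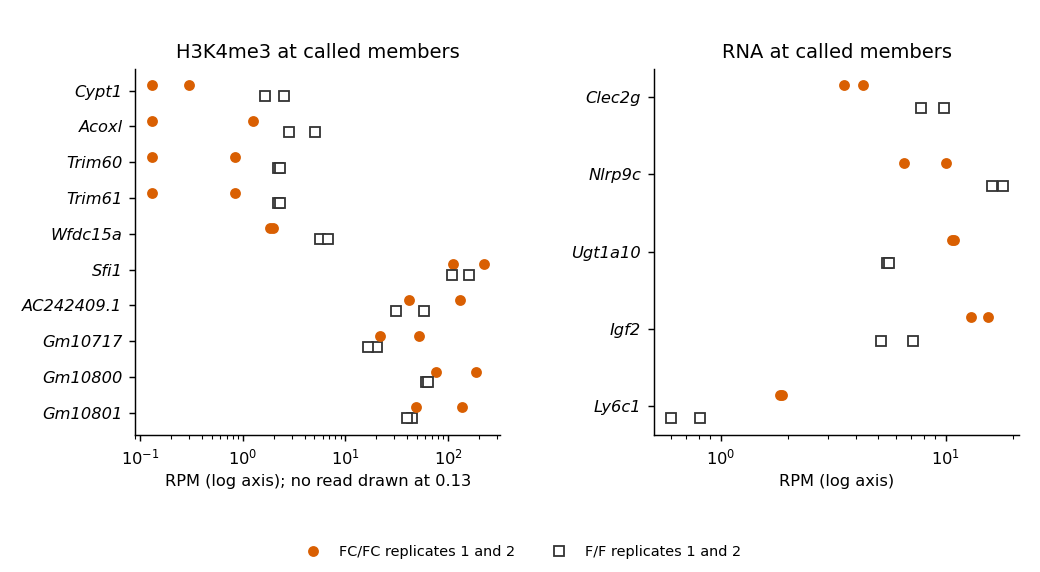
H3K4me3 (left) and RNA (right) in RPM on log axes at the members called between FC/FC cells (filled circles) and F/F cells (open squares), 2 replicates each; a library with no H3K4me3 read is drawn at 0.13 RPM. Cypt1, Acoxl, Trim60, Trim61 and Wfdc15a have lower H3K4me3 in FC/FC cells, and the high points of Gm10800 and Sfi1, at 189 and 223.5 RPM, are FC/FC replicate 1.

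Catsper3 RNA had a log2 change of 0.20 ± 0.29 and did not pass (SE, limma adjusted p = 0.7492). The FC/FC libraries lay on either side of the F/F ones. The change was -0.26 without FC/FC replicate 1 and 0.67 without FC/FC replicate 2, with 1 FC/FC library left in each fit. Wfdc15a, which had lower H3K4me3, had 1.83 and 1.05 RPM of RNA in FC/FC cells against 3.54 RPM in both F/F libraries, and narrowly missed the threshold (-1.35 ± 0.28, limma adjusted p = 0.05017). Acoxl, also lower in H3K4me3, had 1.40 and 1.27 RPM of RNA in FC/FC cells against 0.806 and 0.856 RPM in F/F cells (0.68 ± 0.24, limma adjusted p = 0.18). Cypt1 had no RNA read in any library.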

How the data were processed

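H3K9me3, H3K4me3, H3K27me3, input DNA and RNA were sequenced in 20 libraries. The deposited chromatin and RNA tables hold log2 RPM, calculated by the authors per mapped reads of each library, with no division by input or by gene length. TopHat2 2.0.14, Bowtie 1.1.1, Trim Galore 0.4.0, CASAVA 1.8 and build mm10 are listed, per the submitters' processing notes, with no role; the strand setting of the counts is not given in the sources used here. On the linear scale, the values of a library rose in equal steps of 1 read, which gave whole reads for 100.0% of values (within 0.1 of a read) and the mapped reads. The unit turned out to be log2, so the count model foreseen for counts was not used.

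The members and gene lists were chosen with earlier results of these data known. Tests were run in R 4.3.3 by limma 3.58.1 (limma-trend), two-sided, adjusted by Benjamini-Hochberg over all windows or genes tested, and tested on simulated data; an adjusted p under 0.05 was a call. FC/FC against F/F used deposited values with a mean of at least 1 RPM (chromatin) or a mean log2 RPM of at least 0 (RNA). Marks over F/F inputs 1 and 2 used log2(RPM + 0.5) with no filter. With 2 libraries per group, p-values speak only of these libraries. The limma-trend fit draws each variance towards a trend over all windows or genes. An SE or p-value can thus be smaller than the spread between the named libraries would give. Gm10800 H3K4me3 is an example, with an SE of 0.07 where the FC/FC libraries stood at 189 and 76.2 RPM. Floors of 3 reads cover counting error only. Other scalings, filters, pseudocounts, voom, a replicate block and leaving out each library were tried.

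Genes named are Catsper3, Lhcgr and Abpz, the 12 members with the largest lower H3K9me3 difference, 4 windows on each side of the threshold, 8 each by RNA, H3K4me3 and H3K27me3, the called changes, list members, and family leaders; others were chosen after their values were seen. Promoters are from RefSeq (GRCm38.p6).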

Additional observations from a re-analysis of the deposited data

How the results depend on the processing

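Of the values for single genes, 296 kept their direction and side of the threshold under an alternative, 74 lost their call, 1 gained one and 18 changed sign. The gain was Catsper3 RNA without FC/FC replicate 2, a fit with 1 FC/FC library. For H3K4me3 in FC/FC over F/F (5 members lower, 5 higher), median centring gave 3 and 0, quantile normalization 0 lower, a pseudocount of 0.5 RPM 8 lower, voom 9 and 3, and leaving out 1 library 0 to 14 and 1 to 13. For H3K27me3 (0 and 0), median centring gave 9 lower, where 4.2% of all windows were. With 1 library left out, the median log2 change ran from -0.18 to 0.13 over the members and from 0.14 to 0.75 over all windows. For RNA (2 lower, 3 higher), quantile normalization gave 1 and 0, no filter 0 and 0, and a mean of at least 0.25 RPM, a pseudocount of 0.5 RPM or voom 4 lower. Leaving out 1 library gave 3 to 22 lower and 2 to 26 higher, with 17 and 25 without FC/FC replicate 1 and 22 and 26 without FC/FC replicate 2. For H3K4me3 over input (189 lower, 25 higher), median centring gave 623 and 3, voom 91 lower, and leaving out 1 library 61 to 153 and 19 to 26. For H3K27me3 over input (3 lower, 95 higher), median centring, voom and the block each gave 1 lower, where 0.894%, 3.61% and 4.35% of all windows were. With 1 library left out, the median log2 difference ran from 0.24 to 0.35 over the members and from -0.11 to -0.05 over all windows. The cause of these shifts was not tested, except that centring removes the common shift by construction. The set had 299 members at a difference of at least 1, 769 and 451 at pseudocounts of 0.25 and 1 RPM, 548 over the higher input, and 600 to 875 with 1 library left out.

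The values that changed sign were H3K4me3 in FC/FC over F/F for Sfi1 (-0.12 with voom; -0.23 to 0.76 with 1 library left out, below 0 without FC/FC replicate 1 or F/F replicate 2) and AC242409.1 (-0.031 to 1.63, below 0 without FC/FC replicate 1), and, over input with median centring, Acoxl (-1.06), E230019M04Rik (-0.059), Lhcgr (-1.75), Lipo1 (-1.01), Sfi1 (-0.59) and Wfdc15a (-0.63). Among changes that never passed the test, signs turned for Lhcgr H3K4me3 (0.10 with quantile normalization), Lhcgr H3K27me3 (-0.36 with median centring, -0.043 with quantile normalization, -0.076 to 0.52 with 1 library left out) and Abpz H3K27me3 (-0.89 to 0.46 with 1 library left out), and Catsper3 RNA gave -0.040 with quantile normalization and -0.26 to 0.67 with 1 library left out. With the replicate number as a block, H3K4me3 calls in FC/FC over F/F were 8 lower and 7 higher, H3K27me3 calls 1 and 2, and RNA calls 6 and 8. Over all windows or genes the block called 25.8% and 0.448%, 0.146% and 25.1%, and 1.38% and 9.16% in the same order. Same-numbered libraries deviated together only weakly (r = 0.149 for H3K4me3, 0.0617 for H3K27me3 and 0.0909 for RNA, across windows or genes and over 2 pairs), and the labels do not pair them. FC/FC replicate 1 of H3K4me3, at 3830045 reads, sets the limit for members with few reads.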

Other observations

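Some members with high RNA had almost no H3K4me3 at the window that the table lists. Phf21a, which encodes a reader of unmethylated H3K4 in the LSD1 complex, had 69.1 and 80.0 RPM of RNA in FC/FC cells against 60.8 and 61.7 RPM in F/F cells. Its window held no H3K4me3 read in either F/F library, and 2.58 and 1.99 RPM of H3K9me3 against 0.252 and 0.449 RPM in the inputs. Usp14, a proteasome-bound deubiquitinase, had 112.6 and 123.1 RPM of RNA in FC/FC cells against 127.4 and 121 RPM in F/F cells, with no H3K4me3 read in either F/F library and 1.24 and 0.967 RPM of H3K9me3 against 0.299 and 0.237 RPM in the inputs. Neither gene had a matched RefSeq promoter within 1000 bases of its listed start, and whether the listed windows are the starts in use was not tested. Both genes were singled out after their values were seen.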
